A study of Mus musculus with 8 samples.

Results

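The genes described are 8 genes of inflammatory and necroptotic cell death: Casp1, Casp4, Casp8, Gsdmd, Nlrp3, Ripk1, Ripk3 and Mlkl. They were picked by symbol, and all 8 were among the 18187 gene symbols of the count table. The libraries were bulk RNA sequencing of cells labelled as neutrophils from mice bearing B16 tumors, B16 being a mouse melanoma line. There were 3 libraries labelled aOX40 treated B16 tumor (replicates 1 to 3) and 5 labelled IgG treated B16 tumor (replicates 2 to 6). These groups are called aOX40 and IgG below, and every library carried the same tumor label. The labels do not describe the aOX40 and IgG reagents further, and the sources used here give no mouse strain, age, dose, time of harvest or way of isolating the cells. No label says whether each library came from a separate mouse, so p-values measure only the spread between these libraries, which may be technical.

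Pyroptosis and necroptosis are lytic forms of cell death that release inflammatory cell contents. In pyroptosis, the sensor NLRP3 assembles an inflammasome that activates caspase-1, which matures interleukin-1 beta and cuts gasdermin D, encoded by Gsdmd, into a membrane pore. Casp4 encodes the mouse caspase also called caspase-11, which senses intracellular lipopolysaccharide and cuts the same gasdermin. In necroptosis, the kinases RIPK1 and RIPK3 form a complex, and RIPK3 activates the pseudokinase MLKL, which permeabilizes the plasma membrane. Caspase-8 starts apoptosis downstream of death receptors and restrains this complex by cutting RIPK1 and RIPK3.

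Levels are given as CPM, counts per 1e6 after TMM scaling, which evens out differences in library composition. Of the 8 genes, 0 passed an adjusted p of 0.05 in edgeR's quasi-likelihood test of aOX40 against IgG, where 750 of the 13278 genes tested, or 5.65%, did (2.64% higher and 3.0% lower in aOX40). DESeq2 called 1 of the 8 (Casp8) and gave Mlkl no adjusted p, against 16.1% called of the genes to which it gave one. At an unadjusted p below 0.05 edgeR had 4 of the 8 genes, against 24.8% of all genes tested. Casp4, Casp8 and Ripk1 had lower means in aOX40, which is 3 of 8 against 12.2% of all genes, and Nlrp3 had a higher mean, which is 1 of 8 against 12.5%. The count of 4 was 1 with scaling by total counts alone, and 2 without aOX40 replicate 3, without IgG replicate 4 and with a replicate block. The median log2 fold change was 0.0013 over the 8 genes and 0.045 over all genes tested.

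**Figure D1:**
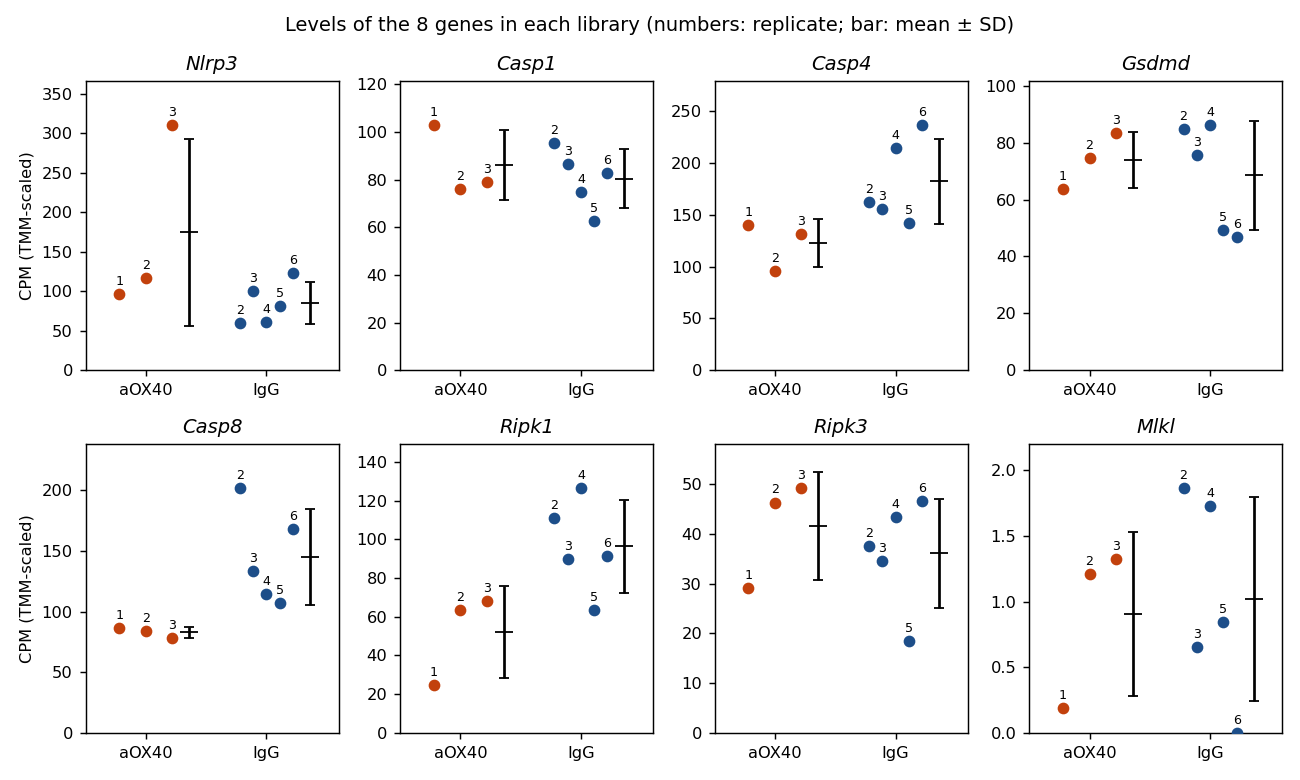
CPM of each of the 8 genes in every library, with aOX40 libraries left of IgG libraries, the replicate number above each point and a bar for the mean ± SD of each group. The groups do not overlap for Casp4 and Casp8 after TMM scaling, though they do with total counts alone, and Nlrp3 is at 310 CPM in aOX40 replicate 3.

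The stretches before the transcription starts of the 4 genes with an unadjusted p below 0.05 are shown, since these are the genes for which the group difference was largest against its error. They run 5′ to 3′ on the plus strand and come from RefSeq on GRCm38.p6, the assembly also called mm10. Each begins 250 bases before the most upstream RefSeq start and stops before that start or before the first exon base annotated after the window opens. The Casp8 window lies inside the longer gene that GENCODE annotates. Capitals mark matches to the kappa-B consensus, the letters that NF-kB proteins bind.
Casp4, chr9:5308599-5308827: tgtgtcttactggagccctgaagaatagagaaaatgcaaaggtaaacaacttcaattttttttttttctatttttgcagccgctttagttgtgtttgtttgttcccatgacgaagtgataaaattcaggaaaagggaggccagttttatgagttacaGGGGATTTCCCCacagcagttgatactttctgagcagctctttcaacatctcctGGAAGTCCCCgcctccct
Casp8, chr1:58802252-58802501: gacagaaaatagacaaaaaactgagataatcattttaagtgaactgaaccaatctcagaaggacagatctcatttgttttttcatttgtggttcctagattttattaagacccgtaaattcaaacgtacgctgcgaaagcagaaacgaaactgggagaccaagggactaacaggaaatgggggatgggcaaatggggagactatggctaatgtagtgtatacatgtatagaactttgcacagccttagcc
Nlrp3, chr11:59541319-59541567: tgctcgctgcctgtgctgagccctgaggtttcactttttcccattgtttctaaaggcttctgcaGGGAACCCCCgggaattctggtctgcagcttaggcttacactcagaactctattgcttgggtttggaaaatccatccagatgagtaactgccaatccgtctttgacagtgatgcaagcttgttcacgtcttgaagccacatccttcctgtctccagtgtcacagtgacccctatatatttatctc
Ripk1, chr13:34002113-34002362: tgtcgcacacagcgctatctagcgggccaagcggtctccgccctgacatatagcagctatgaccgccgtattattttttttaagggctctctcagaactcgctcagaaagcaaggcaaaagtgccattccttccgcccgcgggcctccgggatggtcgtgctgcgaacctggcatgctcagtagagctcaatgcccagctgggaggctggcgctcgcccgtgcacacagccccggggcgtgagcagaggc

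Both strands were searched for the kappa-B consensus, for the interferon-stimulated response element core, which is TTTC, any 2 bases and TTTC again, and for the STAT site TTCNNNGAA, in the 250 bases before each start. RefSeq windows were found for 7 of the 8 genes, in 10 windows. Over all 32851 windows, 23.2% held a kappa-B match, 2.98% that core and 7.02% the TTCNNNGAA letters. The Casp4 window held kappa-B matches in 3 separate stretches, the longest of which is 12 bases of overlapping matches. Such windows with 3 or more stretches were 0.414% of all. The cut of 3 equals the number in Casp4, the highest in the 10 windows, so this share is no test. The third stretch of Casp4 lies in annotated exon sequence and is not shown. The Nlrp3 window held 1 kappa-B match, and so did that of Mlkl. A second RefSeq start of Ripk1, with its window at chr13:34002624-34002923, had 2 matches to TTCNNNGAA. The interferon-stimulated response element core was in none of the 10 windows. These matches describe letters and not bound sites.

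The libraries held 52.7 to 73.5 M counts (M, 1e6), and depth moved with the group, at 69.6 to 73.5 M in aOX40 and 52.7 to 63.2 M in IgG (exact two-sided permutation p = 0.0357, the smallest that 3 against 5 libraries allow). Mitochondrial messenger RNA took 0.0998% to 0.152% of counts in aOX40 and 0.0510% to 0.0811% in IgG (exact permutation p = 0.0357). After TMM scaling its groups overlapped, at 915 to 1200 CPM in aOX40 and 571 to 929 CPM in IgG (exact permutation p = 0.0714). The part of either in the values below was not tested. The 12 neutrophil markers summed to 17093 to 25478 CPM in aOX40 and 15585 to 26044 CPM in IgG. Of these, 3 (Mmp8, Mmp9 and Cd177) rose at an adjusted p below 0.05, as did 2.64% of all genes tested. The groups overlapped for Mmp9, and Mmp8 and Cd177 were highest in aOX40 replicate 2, at 1713 and 610 CPM. T and NK cell markers summed to at most 3.70 CPM and dendritic cell markers to at most 6.11 CPM in any library. B cell markers summed to at most 0.861 CPM and melanoma markers to at most 15.4 CPM. Only 6 of 10 T and NK cell markers, 4 of 7 dendritic cell markers and 1 of 5 B cell markers were in these sums. Of the melanoma markers 7 of 7 were measured, and of the fibroblast and endothelial markers 4 of 8. Fibroblast and endothelial markers summed to 4.45 to 8.45 CPM in aOX40 and 8.92 to 59.9 CPM in IgG (exact permutation p = 0.0357, and 0.107 with scaling by total counts alone). In bulk libraries, fewer cells of a type and less RNA per cell cannot be told apart.

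Levels of different genes were compared as CPM per kb of the longest principal transcript. On this scale Casp4 had the highest mean level, at 85.5 ± 16.4 CPM per kb in aOX40 (SD, n = 3) and 127 ± 28.4 CPM per kb in IgG (SD, n = 5). Casp1 followed at 57.4 ± 9.81 CPM per kb in aOX40 and 53.7 ± 8.31 CPM per kb in IgG. Casp8, Gsdmd, Nlrp3, Ripk3 and Ripk1 came next, with means over the 8 libraries of 47.1, 39.4, 29.5, 20.2 and 12.3 CPM per kb. Mlkl was far below, at 0.459 ± 0.316 CPM per kb in aOX40 and 0.516 ± 0.394 CPM per kb in IgG.

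The 7 genes other than Mlkl lay between the 75.1 and 94.7 percentiles of the 9796 coding genes tested, and Mlkl at the 20.3 percentile. This order is that of the means over all 8 libraries and held in neither group alone. In aOX40, Nlrp3 at 43.4 and Gsdmd at 41.3 CPM per kb were above Casp8 at 32.1, and in IgG, Casp8 at 56.1 CPM per kb was above Casp1. The ranges of neighbours in this order overlapped in 6 of 7 pairs, all but Ripk1 and Mlkl. The place of Casp4 depended on the length used. Per kb of all its annotated exons together Casp4 averaged 43.1 CPM per kb, below Casp1 at 55.1.

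**Figure D2:**
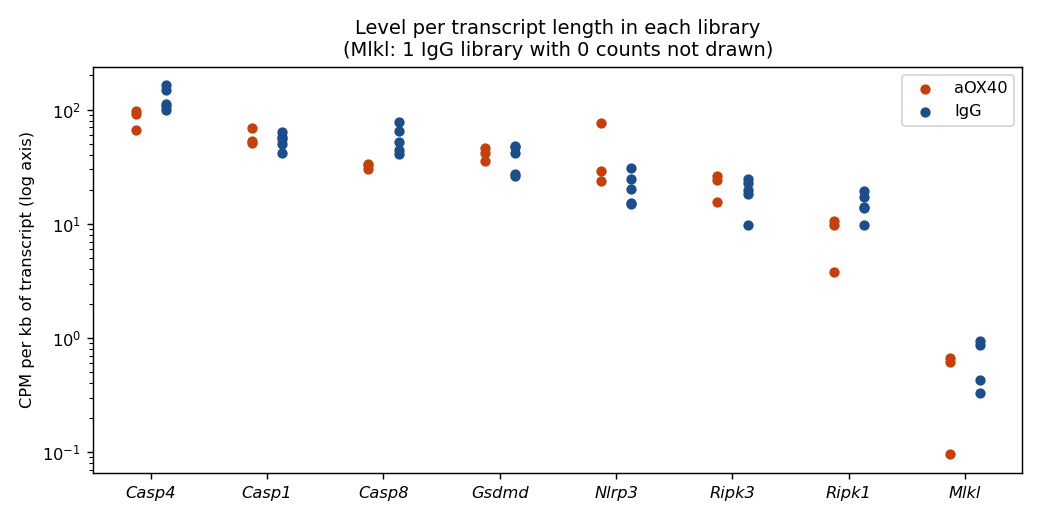
Level of each gene in CPM per kb of its longest principal transcript on a log axis, with 1 point per library, aOX40 left of IgG and genes ordered by mean level. Mlkl lies below 1 CPM per kb in every library.

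Nlrp3, the inflammasome sensor, lies at chr11:59541568-59566956 (GRCm38, GENCODE M21, as for the positions that follow) and had the largest positive log2 fold change of the 8 genes. Nlrp3 stood at 96.2, 117 and 310 CPM in aOX40 replicates 1, 2 and 3, against 60.1, 99.8, 61.4, 81.8 and 124 CPM in IgG replicates 2 to 6. The groups overlapped, since aOX40 replicates 1 and 2 were below IgG replicate 6, and replicate 3 alone lay far above the rest. The log2 fold change was 1.03 (SE 0.38, 95% interval 0.19 to 1.87, adjusted p = 0.129, edgeR). Without aOX40 replicate 3 it was 0.33 (adjusted p = 0.602).

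Markers of monocytes and macrophages, cells that also use this sensor, were given beside it. Their 11 measured markers of 12 summed to 1083 to 1527 CPM in aOX40 and 1403 to 2037 CPM in IgG (exact permutation p = 0.0714, and 0.536 with total counts alone). Cd68 and Ly6c2 made up most of each sum, so it says little of the other markers. Ly6c2 was at 559, 686 and 397 CPM in aOX40 and 527, 319, 314, 656 and 307 CPM in IgG, with overlapping groups. Cd68 fell, at 879, 504 and 535 CPM in aOX40 against 1466, 1019, 1252, 1246 and 1376 CPM in the IgG libraries (log2 fold change -0.99, adjusted p = 0.0362, edgeR). Adgre1, encoding F4/80, rose, at 14.5, 26.8 and 23.6 CPM in aOX40 against 2.13, 8.07, 6.89, 8.55 and 4.98 CPM in the IgG libraries (log2 fold change 1.81, adjusted p = 0.0248, edgeR). Csf1r, the receptor for a macrophage growth factor, was at 39.9, 38.0 and 75.6 CPM in aOX40. In IgG it was at 4.51, 16.3, 25.1, 24.2 and 17.5 CPM, below every aOX40 library. Csf1r was not called in edgeR, and 8.22% of all genes tested were likewise higher in aOX40 without overlap. The complement genes C1qa, C1qb and C1qc, which mark macrophages, were at most 1.89 CPM in every library, Mertk was at 0 in all libraries but aOX40 replicate 2, and Mrc1 was not analysed here. Their part in the Nlrp3 values was not tested.

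Casp1, at chr9:5298517-5307265, was close in both groups. It stood at 103, 76.0 and 79.2 CPM in aOX40 and at 95.4, 86.6, 74.6, 62.6 and 82.7 CPM in IgG, in order of replicate number here and below. The groups overlapped, with aOX40 replicate 1 highest and IgG replicate 5 lowest. Casp1 had a log2 fold change of 0.10 (SE 0.21, 95% interval -0.36 to 0.56, adjusted p = 0.817, edgeR), so the interval reaches from a fold of 0.778 to one of 1.47.

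Casp4, which begins next to Casp1 at chr9:5308828-5336783, was lower in every aOX40 library than in any IgG library. Its levels were 140, 96.0 and 132 CPM in aOX40 and 162, 156, 214, 142 and 236 CPM in IgG. The gap was narrow, between aOX40 replicate 1 and IgG replicate 5. For Casp4 the log2 fold change was -0.57 (SE 0.24, 95% interval -1.09 to -0.05, adjusted p = 0.165, edgeR) and did not pass. Groups that do not overlap were found for 2 of the 8 genes, Casp4 and Casp8, both lower in aOX40, and for 16% of all genes tested (7.75% lower and 8.22% higher in aOX40). With scaling by total counts alone both genes overlapped, Casp4 through aOX40 replicates 1 and 3 and Casp8 through aOX40 replicate 2. On that scale 1 of the 8 genes, Casp1, did not overlap, against 18.5% of all genes tested. Casp1 was higher in aOX40 by a narrow gap, with 86.4 CPM in aOX40 replicate 3 and 85.7 CPM in IgG replicate 2. It did not pass there (adjusted p = 0.225, edgeR with total counts alone).

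Gsdmd, the pore former cut by both caspases, lies at chr15:75862327-75867408 and showed overlapping groups. It stood at 63.8, 74.7 and 83.5 CPM in aOX40 and at 84.9, 75.7, 86.2, 49.3 and 46.8 CPM in IgG. IgG replicates 5 and 6 were lowest. Gsdmd had a log2 fold change of 0.11 (SE 0.26, 95% interval -0.45 to 0.68, adjusted p = 0.831, edgeR).

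Among the genes of the death receptor and necroptosis complex, Casp8 had the smallest p of the 8 genes. Casp8, at chr1:58795374-58847503, stood at 86.6, 84.3 and 78.0 CPM in aOX40 and at 202, 134, 114, 107 and 168 CPM in IgG. The aOX40 libraries lay close together and below all 5 IgG libraries, which spread more widely. The log2 fold change was -0.81 (SE 0.24, 95% interval -1.34 to -0.27, adjusted p = 0.0758, edgeR), a fold of 0.572. Its adjusted p was 0.0117 in DESeq2, 0.0474 in edgeR with only genes at a mean of at least 100 counts (11.8% of genes called) and 0.0450 in limma voom with quality weights (9.83% called). The annotated gene Gm20257, at 0.511 to 6.41 CPM, matched 34.9% of the longest Casp8 principal transcript at 89.0% identity.

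Ripk1, at chr13:34002363-34037147, had a mean of 52.0 ± 23.9 CPM in aOX40 libraries (SD, n = 3) and 96.3 ± 23.9 CPM in IgG libraries (SD, n = 5). It stood at 24.6, 63.3 and 68.2 CPM in aOX40 and at 111, 89.6, 127, 63.4 and 91.2 CPM in IgG. The groups overlapped through IgG replicate 5, and aOX40 replicate 1 was lowest of all. The log2 fold change was -0.88 (SE 0.34, 95% interval -1.64 to -0.13, adjusted p = 0.142, edgeR), and without aOX40 replicate 1 it was -0.54 (adjusted p = 0.277). An exon of Serpinb6a on the other strand overlaps Ripk1, and Serpinb6a was at 5.51 to 12.6 CPM. Whether reads were counted by strand is not stated, so reads of the stretch shared with Serpinb6a cannot be told apart. An exon of Gm17084 on the same strand also overlaps Ripk1, which counting by strand would not separate. Gm17084 was at 0 to 0.864 CPM.

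Ripk3, at chr14:55784995-55788865, did not separate the groups. It stood at 29.2, 46.3 and 49.3 CPM in aOX40 and at 37.7, 34.6, 43.4, 18.4 and 46.7 CPM in IgG. The lowest libraries were IgG replicate 5 and aOX40 replicate 1. Ripk3 had a log2 fold change of 0.21 (SE 0.31, 95% interval -0.47 to 0.88, adjusted p = 0.724, edgeR).

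Mlkl, at chr8:111311797-111338177, was low and varied widely between libraries of 1 group. It had 14, 108 and 106 counts in aOX40 and 91, 34, 93, 52 and 0 counts in IgG, so that it ranged over 0.188 to 1.32 CPM in aOX40 and 0 to 1.87 CPM in IgG. The log2 fold change was -0.095 (SE 0.79, adjusted p = 0.958, edgeR) and turned to 0.22 with scaling by total counts alone. Its 95% interval of -1.81 to 1.62 spans folds of 0.286 to 3.07, so that the data do not give the direction of a difference within those bounds.

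**Figure D3:**
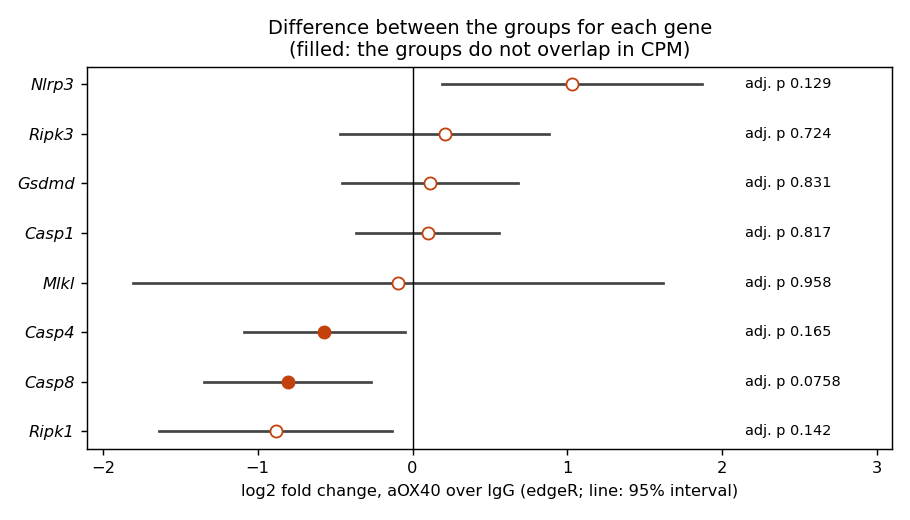
Log2 fold change of aOX40 over IgG for each gene, with its 95% interval from edgeR and its adjusted p at the right. Filled points are Casp4 and Casp8, whose groups do not overlap in CPM after TMM scaling but do with total counts alone. The intervals of Nlrp3, Casp4, Casp8 and Ripk1 lie on 1 side of 0 before adjustment.

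**Figure D4:**
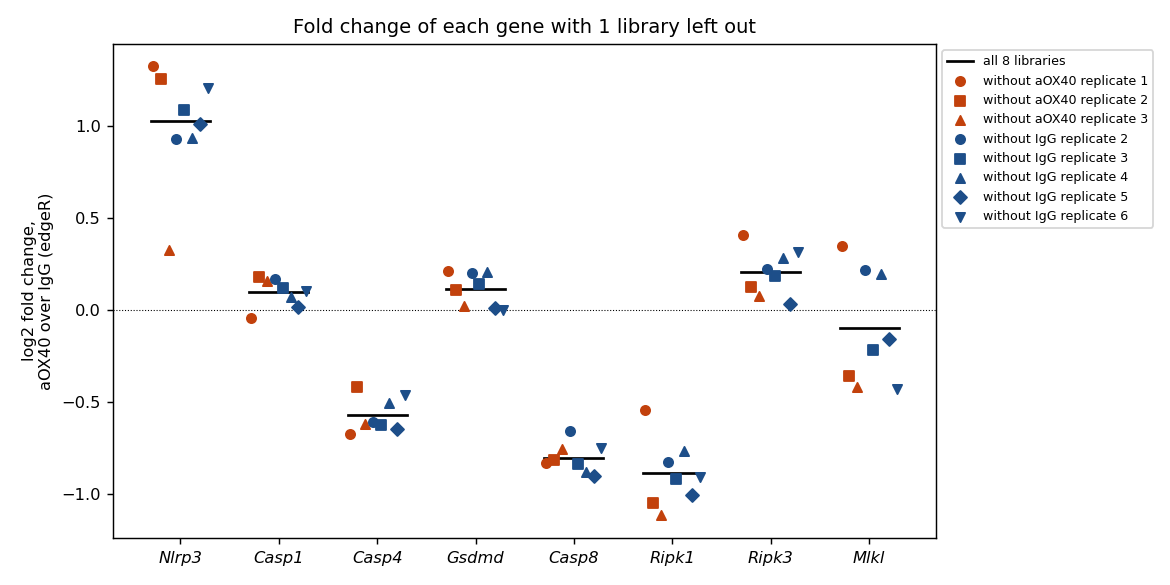
Log2 fold change of aOX40 over IgG for each gene when 1 library is left out, with a black line for the value from all 8 libraries. Nlrp3 moves from 1.03 to 0.33 without aOX40 replicate 3, while Casp8 stays between -0.90 and -0.66.

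The genes around these 8 were read from 8 lists of 88 genes, of which 70 passed the filter on low counts. Of the 70 genes, 3 rose and 4 fell, beside 5.65% called among all genes tested. Without aOX40 replicate 2, and likewise without aOX40 replicate 3, 0 of them were called. Their median log2 fold change was 0.18.

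Upstream of the inflammasome, P2rx7, an ATP-gated channel that drives the potassium efflux sensed by NLRP3, was the 1 gene called of 12 tested sensors and adaptors. P2rx7 fell to 1.99, 1.01 and 1.47 CPM in aOX40, against 6.05, 6.41, 7.63, 11.6 and 4.82 CPM in IgG. The groups were well apart, at low levels (log2 fold change -2.32, SE 0.47, adjusted p = 0.0242, edgeR). Aim2, a DNA sensor, and Pycard, the adaptor that joins sensors to caspase-1, did not pass, with log2 fold changes of -0.56 and 0.13.

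Of the interleukin genes whose products inflammatory caspases mature, 0 of 3 tested passed. Il1b stood at 12035 ± 3488 CPM in aOX40 libraries (SD, n = 3) and 14959 ± 4436 CPM in IgG libraries (SD, n = 5), with a log2 fold change of -0.31 (adjusted p = 0.521, edgeR). Il18 had lower levels in all aOX40 libraries, between 14.0 and 27.1 CPM, against 30.2 to 52.6 CPM in the IgG libraries (log2 fold change -1.03, SE 0.30, adjusted p = 0.0678, edgeR). Among pore formers and rupture genes, 0 of 3 tested passed. Ninj1, which ruptures the membrane of dying cells, averaged 1945 ± 450 CPM in aOX40 and 2472 ± 336 CPM in the IgG libraries (log2 fold change -0.35, adjusted p = 0.323, edgeR), and Gsdme, which encodes another gasdermin, had 0.08.

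Of 10 tested caspases and apoptosome genes, Cycs, encoding cytochrome c, fell (18.2 ± 4.24 CPM in aOX40, 40.3 ± 6.41 CPM in the IgG libraries, log2 fold change -1.15, adjusted p = 0.0269, edgeR). Casp9, the caspase that the apoptosome activates, had a log2 fold change of 1.06 (adjusted p = 0.270, edgeR) and overlapping groups.

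Of 10 tested death receptor and adaptor genes, 1 fell. It was Tnfrsf1a, the main TNF receptor that recruits RIPK1, at 297, 283 and 476 CPM in aOX40, against 608, 738, 1245, 525 and 1005 CPM in IgG. The groups did not overlap, and the call was close to the threshold (log2 fold change -1.23, SE 0.32, adjusted p = 0.0486, edgeR) and was lost in 13 of 19 alternative analyses. With scaling by total counts alone its groups overlapped, as did those of Il18 and of Zbp1. Zbp1, a nucleic acid sensor that engages RIPK3, was at 229, 210 and 269 CPM in aOX40, against 481, 353, 504, 307 and 320 CPM in IgG, without overlap (log2 fold change -0.74, adjusted p = 0.0793, edgeR). Cflar, a brake on caspase-8, had a log2 fold change of -0.07, and scaling by total counts alone turned it to 0.21. Fadd, the adaptor that links death receptors to caspase-8, was at most 0.0885 CPM in every library and was not tested.

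Of 19 tested ubiquitin and kinase genes that act on RIPK1 or its partners, 2 rose. Ikbke, a kinase that with TBK1 phosphorylates RIPK1, rose to 58.6, 61.5 and 83.9 CPM in aOX40, against 11.7, 15.5, 4.09, 17.8 and 16.1 CPM in IgG. Every aOX40 library was more than all IgG libraries by a wide margin (log2 fold change 2.38, SE 0.35, adjusted p = 0.00996, edgeR). Tnip1, a partner of the ubiquitin editor A20, rose as well, to 85.1 ± 22.8 CPM in aOX40, against 41.5 ± 8.49 CPM in IgG (log2 fold change 1.03, adjusted p = 0.0369). Tnfaip3, which encodes A20, had a log2 fold change of 1.04 (adjusted p = 0.0953) and overlapping groups. Tnip1 lost its call in 9 of 19 alternative analyses and Ikbke in 3.

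In the ESCRT-III list, whose products patch membranes opened by gasdermin D or MLKL, 1 of 9 tested genes passed. Chmp4b, a filament subunit, fell to 41.5, 22.4 and 32.0 CPM in aOX40, against 62.9, 64.9, 76.0, 57.4 and 70.9 CPM in the IgG libraries (log2 fold change -1.06, SE 0.24, adjusted p = 0.0341, edgeR), and lost its call in 9 of 19 alternative analyses. Of 4 tested genes of protease inhibitors and neutrophil lytic death, Prtn3, encoding proteinase 3, rose at a low level, with 0.898 to 1.42 CPM in aOX40 and 0 to 0.349 CPM in IgG (adjusted p = 0.0403, edgeR), and lost its call in 11 of 18 alternative analyses.

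**Figure D5:**
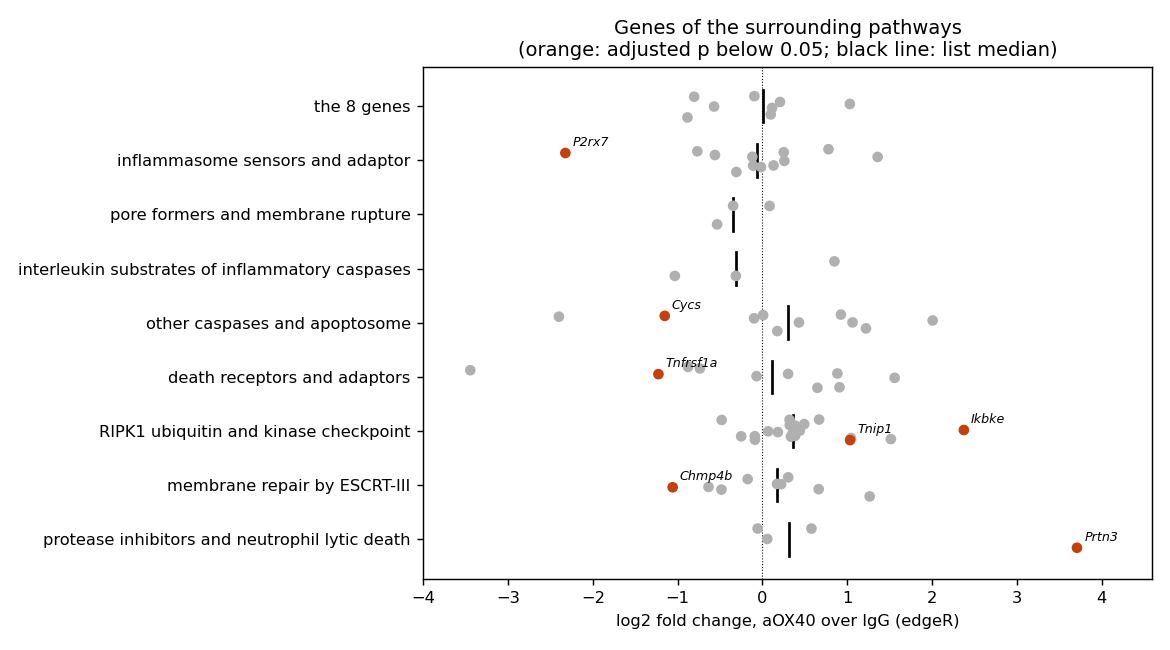
Log2 fold change of aOX40 over IgG for the 8 genes and the 70 tested genes of the surrounding lists, 1 point per gene. Orange points passed an adjusted p of 0.05, grey points did not, and black lines are list medians. No point of the 8 genes is orange.

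Across the 8 libraries, the genes whose log2 CPM followed each of the 8 most closely were looked up among 4549 named genes with a mean of at least 10 CPM, by Pearson's r. They were Upp1 (0.98) and Rbmx (0.98) for Casp8, Wnk1 (0.94) for Casp4, and Anp32e (0.92) and Srp54c (0.92) for Casp1. For Gsdmd they were Dgka (0.99) and Gdap2 (0.96), for Nlrp3 Arrdc4 (0.98) and Tnfrsf1b (0.97), for Ripk1 Vps18 (0.98) and Sik1 (0.97), and for Ripk3 Lcp2 (0.94) and Rapgef6 (0.92). Mlkl was too low to be matched. The highest r between 2 of the 8 genes was 0.64, between Casp4 and Casp8. These values share 8 libraries, 2 groups and the depth difference, and are a description.

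Ratios between the 8 genes within a library do not depend on the scaling between libraries, and were looked at after their values were seen, so they carry no test. Over the 21 pairs of the 7 genes other than Mlkl, the groups did not overlap in 8 pairs, against 24.9% of all pairs among 4936 genes with a mean of at least 10 CPM and a count in every library. The ratio of Ripk3 to Ripk1 was 1.19, 0.73 and 0.72 in aOX40 replicates 1 to 3, against 0.34, 0.39, 0.34, 0.29 and 0.51 in IgG replicates 2 to 6. The ratio of Casp1 to Casp8 was 1.19, 0.90 and 1.02 in aOX40, against 0.47, 0.65, 0.65, 0.59 and 0.49 in IgG. The ratio of Casp1 to Casp4, neighbouring genes, was 0.73, 0.79 and 0.60 in aOX40, against 0.59, 0.56, 0.35, 0.44 and 0.35 in IgG. The ratio of Nlrp3 to Ripk1 was 3.91, 1.85 and 4.55 in aOX40, against 0.54, 1.11, 0.49, 1.29 and 1.36 in IgG. Such ratios show an unequal difference between 2 genes and not which of them differed.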

How the data were processed

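The authors deposited a single table of estimated counts for 18187 gene symbols, with no scaling between libraries. Per the submitters' processing notes, STAR 2.6.0, Subread and featureCounts 1.5.1 were used with genome build mm10. The sources used here give neither their settings nor the annotation. Of the values, 63.4% were whole within 0.01. Columns were matched to libraries by the sample name in the labels.

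Estimated counts were rounded, filtered with filterByExpr and scaled by TMM. The comparison of aOX40 with IgG used the quasi-likelihood F test of edgeR 4.0.16 (legacy option off, R 4.3.3), with no other term, and Benjamini-Hochberg adjustment over 13278 genes. Standard errors and 95% intervals were derived from the F statistic. Single values were tested by an exact two-sided permutation test over 56 splits. The procedure was tested on simulated data. Alternatives were other scalings, filters and tools (DESeq2 1.42.0, limma 3.58.1), each library left out, a replicate block and, added after the data were seen, edgeR's legacy method.

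The 8 genes and the lists were chosen with earlier results of these data known. Named were the 8 genes, pathway genes past the threshold, 12 fixed pathway genes, the smallest p of a list without a call, and the 2 most correlated genes; a few of these are not reported here. Positions are from GENCODE M21 on GRCm38. By BLAST, 0 of the 8 genes had a near copy at 95% identity over 50% of the transcript. The sources used here do not say whether reads were counted by strand.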

Additional observations from a re-analysis of the deposited data

Results flagged for a closer look

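Among the 5 IgG libraries, the levels of 28 genes were checked for 1 library far from the others, and Fadd was marked, where chance marks about 1 in 20 groups. Its level was 0.0885 CPM in IgG replicate 6 and 0 in the other IgG libraries, where replicate 6 had 5 counts. With 0 in the others, any count in replicate 6 would have been marked. The rate of 1 in 20 does not hold for such a gene, and the mark says nothing about its level.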

How the results depend on the processing

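Of the 8 genes, 1 (Casp8) was called with DESeq2, with the filter at a mean of 100 counts and with limma voom with quality weights, and 0 in the other 16 alternatives. Mlkl had no adjusted p with DESeq2 or with that filter. The number of all genes called was 452 without a filter, 1433 with DESeq2, 1305 with limma voom with quality weights and 320 with edgeR's legacy method, and 0 to 589 with 1 library left out: 0 without aOX40 replicate 2 (2230 at an unadjusted p below 0.05), 59 without aOX40 replicate 3, 497 without IgG replicate 3 and 475 without IgG replicate 6. With 1 library left out, 0 of the 8 genes were called in each analysis. The replicate block left 0 genes called, with 2594 at an unadjusted p below 0.05, and 0 of the 8 called. Only numbers 2 and 3 are shared, and same-numbered libraries deviated together at r = 0.022 and 0.047. No label says whether the numbers pair libraries, and 2 such values cannot decide it.

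Total counts alone gave a median log2 fold change of 0.35 over all genes against 0.045 with TMM, and 78.0% of calls higher against 46.8%; the share was 35.0% with DESeq2 and 34.1% with the legacy method. Directions turned only where log2 fold changes were near 0 or counts few. With the block, Casp1 had -0.23, Gsdmd -0.021 and Mlkl 0.039. Mlkl had 0.22 with total counts alone, 0.73 with limma voom and 1.35 with its quality weights, and Cflar had 0.21 with total counts alone. With 1 library left out, Casp1 ran from -0.044 to 0.18, Gsdmd from -0.00055 to 0.21, Mlkl from -0.43 to 0.35, Pycard from -0.027 to 0.36, Gsdme from -0.10 to 0.21 and Cflar from -0.23 to 0.078. The cause was not tested. Casp4, Casp8, Ripk1, Nlrp3 and Ripk3 kept their side of 0 in 19 alternatives. Fadd, at 0 to 5 counts in a library, was too low to be tested.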
